A study of Arabidopsis thaliana with 18 samples.

Results

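The heat shock factor gene HSFA2 (AT2G26150) and 8 heat shock protein genes were followed in mRNA sequencing of Arabidopsis thaliana plants labelled as seedlings. The proteins are HSP101 (AT1G74310), HSP90.1 (AT5G52640), HSP70 (AT3G12580), HSP17.4 (AT3G46230), HSP17.6II (AT5G12020), HSP18.2 (AT5G59720), HSP21 (AT4G27670) and HSP22 (AT4G10250). The 9 genes were taken by locus from the 33378 genes in the count files. All plants were of the Col-0 accession, 11 days old, and grown in vitro at an average of 22 °C with 18 h of light, and the labels name no heat treatment. The 18 libraries form 7 groups. Col-0 (n = 3) is the wild type, rtl2-1 (n = 3) carries a mutation in the RNase III-like gene RTL2, and 35S-RTL2 (n = 3) expresses RTL2 from the viral 35S promoter, which is active in most tissues. The group 35S-RTL1-Myc (n = 2) expresses the RNase III-like gene RTL1 with a Myc tag from the same promoter, also in Col-0. The triple mutant dcl234 (n = 3) is mutated in DCL2, DCL3 and DCL4, which encode Dicer-like enzymes, and the same mutant was sequenced with 35S-RTL2 (n = 3) and with 35S-truncatedDCL1 (n = 1). How many transformed lines stand behind a 35S group is not labelled. Separate cultures for the replicates are not labelled either, and p-values may then measure technical spread only.

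Heat shock factors are transcription factors that bind heat shock elements, inverted repeats of the unit GAA, in the promoters of chaperone genes. In plants, HSFA1 factors start the response to heat, and HSFA2, itself made on heat, prolongs it. The chaperones hold unfolded proteins soluble (small heat shock proteins), refold them (HSP70 and HSP90) or pull them out of aggregates (HSP101), and most of the genes described here are known for low levels without heat and a large rise with it.

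The elements in front of the genes are shown first, as the letters that heat shock factors are known to bind. In the 500 bases before the start codon, which can include the 5′ untranslated region, the 3-unit element GAANNTTCNNGAA, searched on both strands, was present in 6 of the 9 genes. In the same window it was present in 1.2% of 27443 genes of the RefSeq annotation of TAIR10.1. The shorter forms GAANNTTC or TTCNNGAA, which overlap the longer one, were present in 9 of 9 genes and in 33.9% of all genes. Capitals mark the matched letters, and each sequence reads 5′ to 3′ on the strand of its gene on TAIR10.1. The 3-unit elements are these.
HSFA2, chr2:11135528-11135556, + strand: ttagtaacGAAGTTTCTGGAAcattgtct
HSP90.1, chr5:21352254-21352282, + strand: aacgaaaaGAACTTTCTGGAAttcgtttg
HSP70, chr3:3993846-3993874, - strand: ttactcgtGAACGTTCTCGAAagctcttt
HSP18.2, chr5:24062388-24062416, + strand: caacaaacGAAACTTCCTGAAatgccaag
HSP22, chr4:6370379-6370407, + strand: aaagatatTTCAAGAAACTTCttcattct
HSP17.4, chr3:16984946-16984974, - strand: tcaacataGAAGCTTCTTGAAgccacctg
HSP17.4, chr3:16984865-16984893, - strand: agaaacctGAAATTTCAAGAAacttgcag

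HSP101, HSP17.6II and HSP21 had no 3-unit match in this window, and the shorter match nearest to the start codon is shown for each.
HSP101, chr1:27940325-27940348, - strand: aaataagcGAAAATTCcacgtgac
HSP17.6II, chr5:3883038-3883061, - strand: caagacgtTTCTCGAAcaatacgg
HSP21, chr4:13819930-13819953, - strand: cagaactaGAATTTTCtaatcttc

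A match is a description of the sequence and not evidence of binding. Among related genes the 3-unit element was in the windows of 4 of 20 other heat shock factor genes, 1 of 14 other small heat shock protein genes, 6 of 16 other HSP70 and HSP110 genes, 0 of 9 other HSP90 and HSP100 genes and 2 of 17 genes of co-chaperones and other heat response proteins.

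Total counts ran from 20775728 to 34874423 per library. RTL1 stood at 1525 to 1585 CPM in 35S-RTL1-Myc and at most 0.637 elsewhere. RTL2 was at 515 to 618 CPM in 35S-RTL2, 1674 to 2053 in dcl234 35S-RTL2, 0.304 to 0.592 in rtl2-1 and 2.89 to 2.98 in Col-0. In dcl234 the DCL3 row stood at 2.58 to 3.75 CPM against at least 19.1 in Col-0 and the DCL2 row at 40.5 to 42.5 against 63.9 to 76.4. DCL4, at 25.9 to 31.8 CPM in dcl234 and 27.1 to 35.4 in Col-0, overlapped between the groups, so its transcript level does not check that label. The DCL1 row stood at 1417 CPM in 35S-truncatedDCL1 and 143 to 152 in dcl234. In the tissue check, the 4 leaf marker genes summed to 7477 to 15588 CPM. The root hair markers RHD6 and EXPA7 were at 0 or at most 0.0481 CPM in every library although whole seedlings are labelled, while COBL9, the other root hair gene listed, stood at 0.204 to 1.25 CPM. The 4 floral organ markers AP3, PI, AG and SEP3 summed to 401 to 585 CPM. With floral markers present and RHD6 and EXPA7 near 0 in all libraries, the tissue label may be incomplete.

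Levels are counts relative to library size (CPM) scaled by edgeR's TMM method, and 7 of the 9 genes passed the filter on low counts. HSP21 and HSP22 did not. HSP101 and HSP17.4 could not be counted alone: the authors' rows join HSP101 with AT1G74300 and HSP17.4 with AT3G46220, each lying on the opposite strand and overlapping its partner by 101 and 60 bases on TAIR10.1. Values of these rows belong to both genes of the pair. In plants labelled as whole seedlings, fewer expressing cells and less RNA per cell cannot be told apart.

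**Figure D1:**
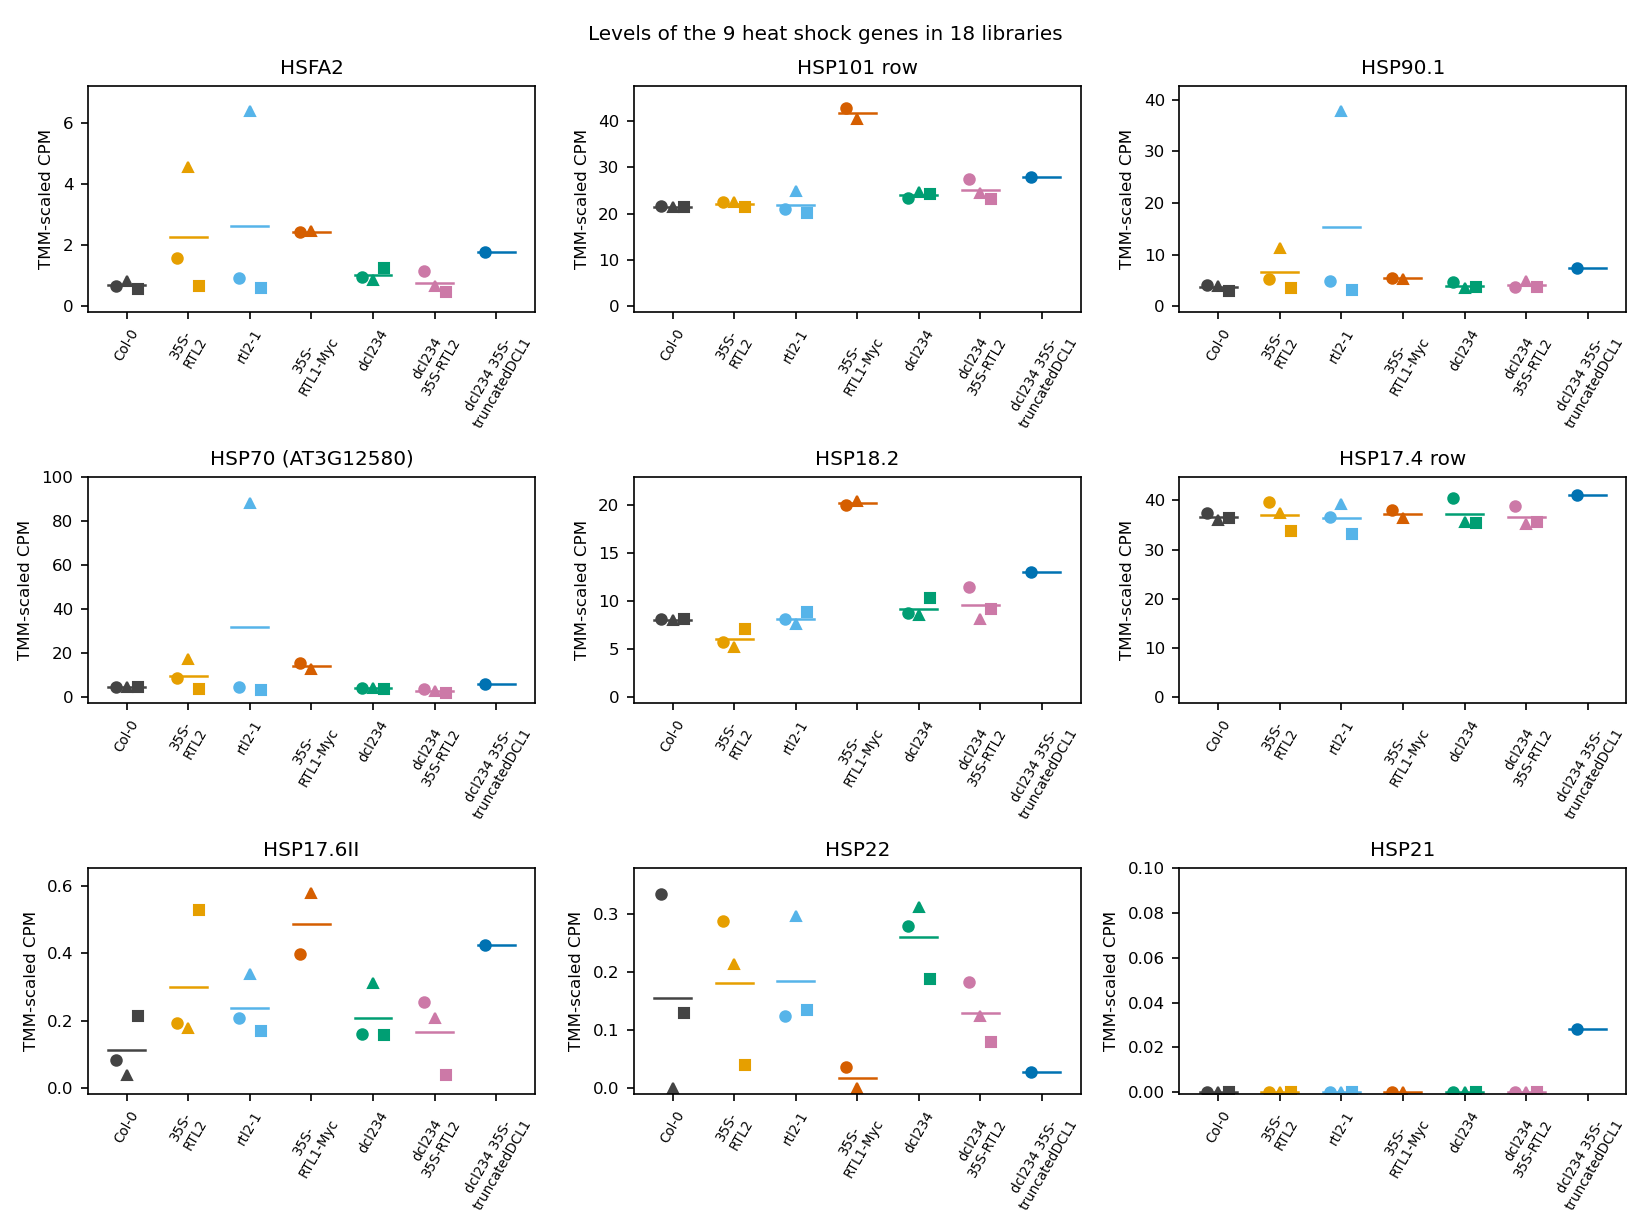
Level of each gene in each of the 18 libraries, as TMM-scaled CPM on a linear axis from 0, by group. Circles, triangles and squares are replicates 1, 2 and 3, and lines are group means. HSP101 and HSP18.2 are highest in both 35S-RTL1-Myc libraries, while HSFA2, HSP90.1 and HSP70 are highest in rtl2-1 replicate 2.

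HSFA2 was expressed at a low level in most libraries, and its highest values were in single libraries of the RTL2 groups, followed by both 35S-RTL1-Myc libraries. Its level was 0.669, 0.829 and 0.561 CPM in the Col-0 libraries and 2.42 and 2.45 CPM in 35S-RTL1-Myc. In 35S-RTL2 it was 1.59, 4.57 and 0.650 CPM in replicates 1, 2 and 3, and in rtl2-1 it was 0.912, 6.39 and 0.609 CPM. The replicates within these last groups differed more than the 35S-RTL1-Myc libraries differed from Col-0. In dcl234 HSFA2 was at 0.957, 0.846 and 1.25 CPM, in dcl234 35S-RTL2 at 1.17, 0.667 and 0.478, and in the single 35S-truncatedDCL1 library at 1.79. Every dcl234 library lay above the Col-0 libraries, but the log2 difference of 0.57 was smaller than its SE of 0.84. How many of all rows separate in this way was not counted. The ranges of dcl234 and dcl234 35S-RTL2 overlapped.

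HSP101, the chaperone of the HSP100 family that dissolves protein aggregates and is needed for acquired heat tolerance, varied little outside 35S-RTL1-Myc. Its row held 21.66, 21.36 and 21.35 CPM in Col-0 and 42.9 and 40.5 CPM in 35S-RTL1-Myc. All other libraries lay between 20.0 and 27.9 CPM, the highest of them being the 35S-truncatedDCL1 library. No library of any other group came near the 35S-RTL1-Myc level.

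HSP90.1 encodes the heat-inducible member of the cytosolic HSP90 family. It stood at 4.14, 3.84 and 2.98 CPM in Col-0 and at 5.50 and 5.24 CPM in 35S-RTL1-Myc. In 35S-RTL2 it was 5.24, 11.3 and 3.54 CPM, and in rtl2-1 4.81, 37.8 and 3.15 CPM. The replicates named 2 of both groups were the high ones, as for HSFA2. The 3 dcl234 libraries lay between 3.52 and 4.58 CPM, dcl234 35S-RTL2 between 3.66 and 4.84, and 35S-truncatedDCL1 at 7.32.

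HSP70 (AT3G12580) encodes a heat-inducible cytosolic HSP70. It stood at 4.72, 4.63 and 4.40 CPM in Col-0 and at 15.6 and 12.6 CPM in 35S-RTL1-Myc. In 35S-RTL2 it was 8.61, 17.3 and 3.54 CPM, and in rtl2-1 4.60, 88.4 and 3.28 CPM. The value in rtl2-1 replicate 2 was 19.2 times that of the next rtl2-1 library. In dcl234 it was 4.19, 4.14 and 3.86 CPM, in dcl234 35S-RTL2 3.54, 2.96 and 1.91 CPM, and in 35S-truncatedDCL1 5.93 CPM.

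The small heat shock proteins hold unfolded proteins until HSP70 and HSP101 act on them, and 5 of the genes encode them. HSP18.2, a cytosolic class I protein, stood at 8.07, 7.99 and 8.11 CPM in Col-0 and at 19.9 and 20.4 CPM in 35S-RTL1-Myc. In 35S-RTL2 it was 5.77, 5.22 and 7.11 CPM, and in rtl2-1 8.08, 7.57 and 8.79 CPM. Within the RTL2 groups it was therefore not high in the replicates named 2, in which HSFA2, HSP90.1 and HSP70 were high. In dcl234 it was 8.69, 8.55 and 10.4 CPM, in dcl234 35S-RTL2 11.4, 8.13 and 9.20 CPM, and in 35S-truncatedDCL1 13.0 CPM.

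HSP17.6II, a cytosolic class II protein, was close to the limit of detection, where 3 counts correspond to 0.0852 to 0.144 CPM depending on the library. It had 2, 1 and 5 counts in the Col-0 libraries and 11 and 17 in 35S-RTL1-Myc, or 0.0836, 0.0377 and 0.216 against 0.398 and 0.579 CPM. The other libraries held 1 to 15 counts, the highest in 35S-truncatedDCL1 and the next, 13, in 35S-RTL2 replicate 3. The row of HSP17.4, a class I protein, lay between 33.3 and 41.0 CPM in all 18 libraries, and since its partner AT3G46220 has the longer exons (2817 against 724 bases on TAIR10.1), this level cannot be given to HSP17.4.

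HSP22, a small heat shock protein of the endomembrane system, had 0 to 8 counts per library, among them 8, 0 and 3 in Col-0, 7, 7 and 6 in dcl234, and 1 and 0 in 35S-RTL1-Myc. HSP21, the small heat shock protein of chloroplasts, had 0 counts in 17 libraries and 1 count in 35S-truncatedDCL1. The filter on low counts kept both genes out of the tests, and no fold is given. All 35S-RTL1-Myc and dcl234 35S-RTL2 libraries lay below every dcl234 library in HSP22, but 35S-RTL1-Myc overlapped Col-0. How often all rows separate so was not counted.

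Per kilobase of exon, a scale on which genes can be compared, Col-0 held 8.24 ± 0.0633 CPM per kb of HSP18.2 (SD, n = 3), 1.82 ± 0.0666 of HSP70, 1.74 ± 0.287 of HSP90.1 and 0.366 ± 0.0719 of HSFA2. HSP22 at 0.149 ± 0.163 and HSP17.6II at 0.128 ± 0.105 followed, and HSP21 was at 0. HSP70 and HSP90.1 did not differ beyond their spread, nor did HSP22 and HSP17.6II. In 35S-RTL1-Myc the order was HSP18.2 at 20.6 ± 0.346 (SD, n = 2), HSP70 at 5.60 ± 0.854, HSP90.1 at 2.55 ± 0.0874, HSFA2 at 1.30 ± 0.00965 and HSP17.6II at 0.554 ± 0.145, with HSP22 at 0.0175 ± 0.0247. The joined rows of HSP101 and HSP17.4 have no such value.

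The comparison of 35S-RTL1-Myc with Col-0 asks which genes differ when RTL1 is expressed. Of the 7 genes tested, 3 were higher and 0 lower by the quasi-likelihood test of edgeR, with p-values adjusted by Benjamini-Hochberg over 21343 rows, of which 14.8% were higher and 29.5% changed in either direction. HSP18.2 rose by 1.32 on the log2 scale (SE 0.15, adjusted p = 1.58e-05), from 8.05 ± 0.0619 to 20.2 ± 0.339 CPM. The HSP101 row rose by 0.96 (SE 0.09, adjusted p = 5.12e-06), from 21.5 ± 0.174 to 41.7 ± 1.71 CPM. HSP17.6II rose by 2.11 (SE 0.69, adjusted p = 0.0327), but on few counts, and it was not called without Col-0 replicate 1 (1.96), Col-0 replicate 2 (1.68), 35S-RTL1-Myc replicate 1 (2.35) or 35S-RTL1-Myc replicate 2 (1.83), with adjusted p from 0.0617 to 0.171.

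HSFA2, HSP70 and HSP90.1 did not pass this test, although both 35S-RTL1-Myc libraries lay above every Col-0 library. The share of all rows that separate in this way was not counted, so the separation is a description only. HSFA2 differed by a log2 of 1.82 (SE 0.86, adjusted p = 0.128), HSP70 by 1.62 (SE 0.98, adjusted p = 0.236) and HSP90.1 by 0.55 (SE 0.77, adjusted p = 0.627). The test takes its spread from all 7 groups, including rtl2-1 replicate 2 and 35S-RTL2 replicate 2, in which these genes are high. Leaving these libraries out therefore had to shorten the SE of these genes, and calls made so are not independent support. Without these libraries, a choice made after seeing the data, 5 of the 7 genes were called, all higher, as were 18.3% of all rows in that fit: HSFA2 differed by 1.82 with an SE of 0.39 (adjusted p = 0.00277) and HSP70 by 1.62 with an SE of 0.29 (adjusted p = 0.000739). Fitted on the Col-0 and 35S-RTL1-Myc libraries alone, 6 were called, all higher, beside 19% of all rows, HSP90.1 among them (0.56, adjusted p = 0.0411). That fit also leaves out rtl2-1 replicate 2 and 35S-RTL2 replicate 2. Its calls of HSFA2, HSP70 and HSP90.1 are therefore not independent support either. The HSP17.4 row differed by 0.02 (SE 0.09, adjusted p = 0.874).

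**Figure D2:**
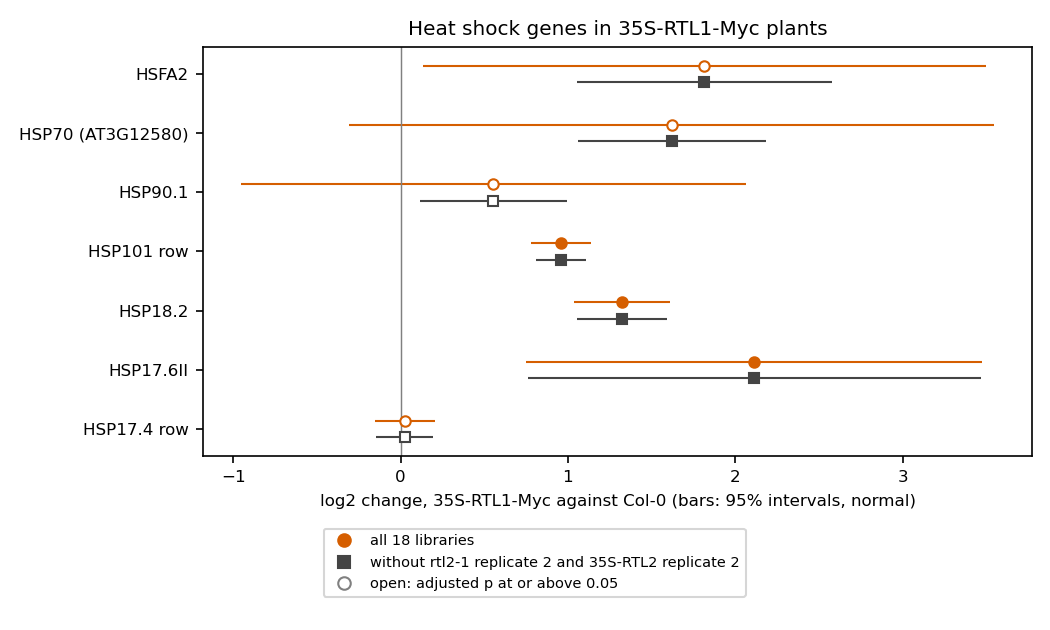
Change of the 7 tested genes in 35S-RTL1-Myc against Col-0 on the log2 scale, with bars of 95% normal intervals, from all 18 libraries (circles) and without rtl2-1 replicate 2 and 35S-RTL2 replicate 2 (squares). Filled symbols have an adjusted p below 0.05. Bars are not the test: with all libraries the HSFA2 bar lies above 0 (0.136 to 3.50), yet its unadjusted p by edgeR was 0.0516. The values barely move, while the bars of HSFA2, HSP70 and HSP90.1 shorten and HSFA2 and HSP70 become filled.

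35S-RTL1-Myc was also set against dcl234 directly, where 22.9% of all rows were called and 12.4% were higher. HSP101 (0.80, SE 0.09, adjusted p = 2.84e-05) and HSP18.2 (1.13, SE 0.15, adjusted p = 7.38e-05) were higher in 35S-RTL1-Myc. Without the libraries that stand apart, left out after seeing the data, HSFA2 (1.24, adjusted p = 0.0231) and HSP70 (1.80, adjusted p = 0.000448) were called too. In that fit 30% of all rows were called. Both genes are high in the libraries left out, so their calls are not independent support. HSP17.6II differed by 1.24 (SE 0.63, adjusted p = 0.178).

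Morning genes of the circadian clock moved in the same libraries. LHY was at 149 and 104 CPM in 35S-RTL1-Myc and 3.41 to 4.52 CPM in Col-0, CCA1 at 128 and 104 against 5.09 to 8.99 CPM, and the evening gene TOC1 at 32.5 and 87.4 against 135 to 166 CPM. The labels give no hour of harvest, heat shock genes are known to follow the day, and the part of harvest time in the differences was not tested. The 35S-truncatedDCL1 library had the next highest LHY and CCA1, 26.1 and 61.1 CPM, and TOC1 at 69.2 CPM.

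Other heat response genes were read from the same fit of 35S-RTL1-Myc against Col-0, where 14.8% of all rows were higher and 29.5% changed in either direction. Outside the heat shock factors, the shares of listed genes called were near or below these. No list was tested as a whole. Where a gene shares its row with an overlapping gene, the row is named, and the change cannot be given to either gene. Of 17 other heat shock factor genes tested, of 20 listed, 6 were higher and 2 lower, with a median log2 difference of 0.22 against -0.00 over all rows. The row of HSFC1 rose from 3.55 ± 0.183 to 11.0 ± 0.452 CPM (log2 1.63, SE 0.22, adjusted p = 7.80e-05). The row of HSFB1 rose from 13.3 ± 1.38 to 29.2 ± 3.63 CPM, by 1.14 (SE 0.14, adjusted p = 2.91e-05). HSFB2A rose by 0.81 and HSFB4 by 0.53, with adjusted p of 0.000178 and 0.00652. Up to 4 called genes were named by rule, so the rest of the 6 higher genes are not named, and the classes were not compared. HSFB factors lack the activation domain of class A and mostly repress. The lower genes, named after their values were seen, were HSFA6B (-1.95, adjusted p = 0.0326) and HSFA8 (-0.93, adjusted p = 0.0116).

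Among other small heat shock protein genes, 2 of 12 tested (14 listed) were higher and 0 lower, beside 14.8% of all rows higher. Their median log2 difference was 0.64. AT5G51440, an HSP20-like chaperone in RefSeq, rose from 0.261 ± 0.0630 to 2.66 ± 0.488 CPM (log2 3.33, SE 0.62, adjusted p = 0.000986). AT1G52560, of the same family, rose by 1.69 (SE 0.47, adjusted p = 0.0134). Without the libraries that stand apart, left out after seeing the data, or with the compared groups alone, 5 of this list were called. All were higher, beside the 18.3% and 19% of all rows that were higher in those fits. Both fits leave out rtl2-1 replicate 2, in which several genes of this list are high, so these calls are not independent support. Of 16 other HSP70 and HSP110 genes 2 were higher and 3 lower, beside 29.5% of all rows called, with a median of 0.08. HSP70T-2 rose by 0.67 and AT1G79930, BIP2 and BIP1 fell by 0.37, 0.37 and 0.25. BIP1 and BIP2 encode HSP70 proteins of the endoplasmic reticulum. The fifth, mtHSC70-2 (0.29, adjusted p = 0.0350), was named after its value was seen.

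Of 8 other HSP90 and HSP100 genes tested, of 9 listed, 1 was higher and 1 lower, beside 29.5% of all rows called. Their median was -0.19. The row of CLPB3, the chloroplast relative of HSP101, rose from 94.7 ± 10.5 to 227 ± 65.9 CPM (log2 1.26, SE 0.16, adjusted p = 4.61e-05). HSP90.7, the HSP90 of the endoplasmic reticulum, fell by 0.36 (adjusted p = 0.0127). Of 16 co-chaperone and other heat response genes tested, of 17 listed, 1 was higher and 3 lower, beside the same 29.5%. Their median was 0.02. HOP3, a co-chaperone that links HSP70 and HSP90, rose from 5.05 ± 0.453 to 18.9 ± 1.17 CPM (1.90, SE 0.27, adjusted p = 0.000141). DREB2A, a transcription factor of drought and heat, fell by 1.27 (adjusted p = 0.00254), HOP1 by 0.33 and BAG6 by 0.46.

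**Figure D3:**
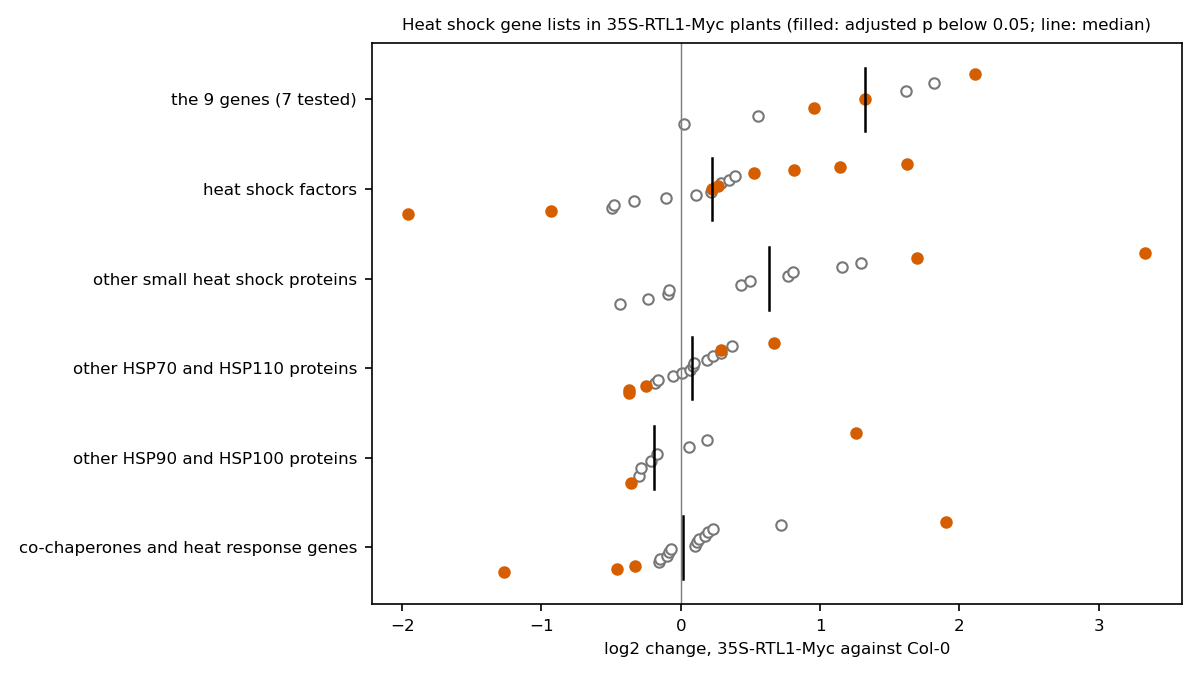
Log2 difference of every tested gene of 6 lists in 35S-RTL1-Myc against Col-0, 1 point per gene, with the list median as a line. Filled points passed the test. Of the 7 tested genes 6 lie above 0.5 and the HSP17.4 row is at 0.02, whereas each of the other lists has points on both sides.

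In the RTL2 groups none of these genes was called, and the differences in HSP70 and HSP90.1 came mostly from single libraries. Against Col-0, 0 of 7 genes were called in 35S-RTL2 (0.00937% of all rows by edgeR), with 2 at an unadjusted p below 0.05, and DESeq2 called 0 as well. HSFA2 differed by a log2 of 1.73 (SE 0.80, adjusted p = 0.899) and HSP18.2 by -0.42 (SE 0.14, adjusted p = 0.899). In rtl2-1, 0 of 7 were called (0.122% of all rows), with 3 at an unadjusted p below 0.05, and DESeq2 again called 0. HSP70 differed by 2.80 (SE 0.93, adjusted p = 0.340), HSP90.1 by 2.05 (SE 0.69, adjusted p = 0.348) and HSFA2 by 1.91 (SE 0.80, adjusted p = 0.407).

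Without rtl2-1 replicate 2 and 35S-RTL2 replicate 2 these differences nearly vanished in rtl2-1, where HSP70 stood at -0.23, HSP90.1 at 0.11 and HSFA2 at 0.13. The libraries were left out after seeing their high values of these genes, so a fall was fixed in advance and only its size is described. In 35S-RTL2 they became 0.39, 0.26 and 0.68, with adjusted p of at least 0.952 in both groups. HSP18.2 in 35S-RTL2 stood at -0.32 without them.

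**Figure D4:**
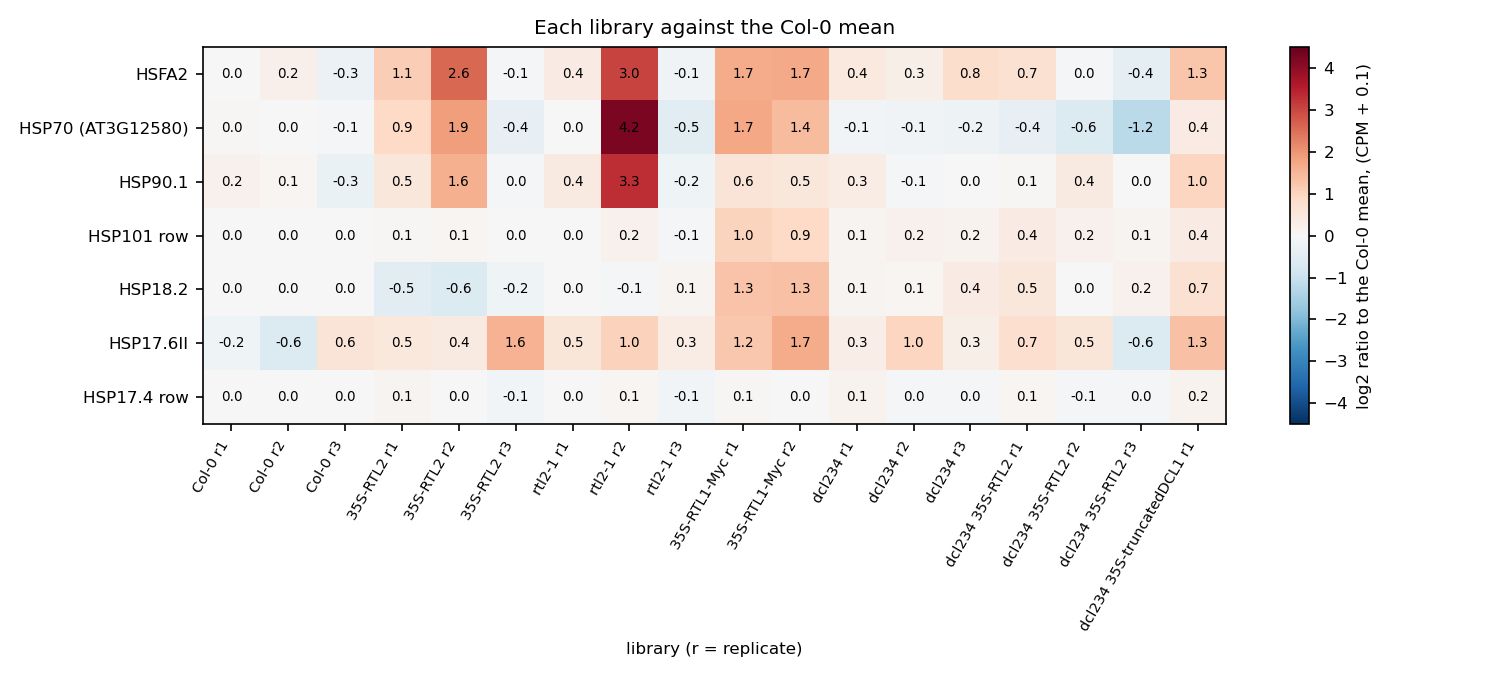
Log2 ratio of each library to the Col-0 mean, computed on CPM + 0.1, for the 7 tested genes (rows) in 18 libraries (columns, r for replicate). Red is above and blue below the Col-0 mean. The darkest cells are HSP70, HSP90.1 and HSFA2 in rtl2-1 replicate 2, while HSP101 and HSP18.2 are raised in the 35S-RTL1-Myc columns.

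Libraries were compared within their group in log2 CPM computed after adding 2 prior counts, which shrinks ratios of low counts. In rtl2-1 replicate 2, 3 of the 7 genes were at least 2-fold above both other libraries on this scale, as were 3.26% of all rows. HSFA2 was 7.01 times and HSP90.1 7.86 times the next library, beside the 19.2 times of HSP70. So were 6 of 12 other small heat shock protein genes, 2 of 16 other HSP70 and HSP110 genes, 1 of 16 co-chaperone genes, and 0 of the 17 heat shock factor genes and 0 of the 8 HSP90 and HSP100 genes. Among them AT4G21870, of the HSP20-like family, stood at 4.93, 112 and 34.0 CPM in rtl2-1 replicates 1, 2 and 3, HSP70-2 at 253 CPM against at most 102, HOP3 at 11.0 against 4.89, and HSP17.6A (AT5G12030) at 0.846 against 0.124. Of the marker genes, the row of the root endodermis gene CASP1 was at 11.3 CPM against at most 3.65. The root hair gene COBL9 went the other way, at 0.212 CPM against 0.580 and 0.406 in rtl2-1 replicates 1 and 3. The leaf marker sum of this library was the lowest of all, 7477 CPM. The part of tissue composition in these values was not tested.

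In 35S-RTL2 replicate 2, 2 of the 7 genes were at least 2-fold above both other libraries on the same scale, against 0.319% of all rows. They were HSFA2 (2.88 times) and HSP90.1 (2.15 times), and HSP70, at 17.3 against 8.61 CPM, lay at the limit, reaching 2.004 times in CPM without the prior count. The small heat shock protein genes AT1G59860 and AT5G51440 passed the same limit. AT4G21870 was at 67.5, 55.1 and 8.66 CPM in 35S-RTL2 replicates 1, 2 and 3 against 5.69 to 7.01 CPM in Col-0, so that replicate 1 was high as well. In the remaining libraries of the groups with 3 replicates, the only such value among the 7 genes on this scale was HSP17.6II in 35S-RTL2 replicate 3, at 13 counts against 4 and 5 (0.37% of all rows). Without the prior count HSP17.6II in Col-0 replicate 3 also passed, at 5 counts against 2 and 1. In the other direction, 2 of the 7 genes in 35S-RTL2 replicate 3 were at least 2-fold below both other libraries, as were 362 of 21343 rows. In dcl234 35S-RTL2 replicate 3 it was 1 of the 7, beside 67 of 21343 rows.

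Within the dcl234 background no gene was called against dcl234. For dcl234 against Col-0, 0 of 7 genes were called by edgeR and by DESeq2 (4.56% of all rows), and 0 had an unadjusted p below 0.05. The largest difference was that of HSP17.6II, 0.87 (SE 0.72, adjusted p = 0.567). HSP101 differed by 0.16 (SE 0.08) and HSP18.2 by 0.19 (SE 0.14). For dcl234 35S-RTL2 against dcl234, 0 of 7 were called by both tools (0.0609% of all rows), 0 had an unadjusted p below 0.05, and values ran from -0.53 for HSP70 to 0.06 for HSP101 and HSP18.2. Whether RTL2 acted differently with and without the DCL genes was tested as an interaction, which was called for 0 of 7 by both tools (0.00937% of all rows), with 1 at an unadjusted p below 0.05, HSP18.2 (0.48, SE 0.19, adjusted p = 0.891).

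Between the overexpressors, dcl234 35S-RTL2 and 35S-RTL2, HSP18.2 was the 1 gene called, where 20.9% of all rows were called and 9.11% were higher. It was higher in the dcl234 background by 0.67 (SE 0.14, adjusted p = 0.00501), at 9.59 ± 1.69 against 6.03 ± 0.974 CPM. HSP70 went the other way, at 2.80 ± 0.824 against 9.80 ± 6.94 CPM (-1.81, SE 0.95, adjusted p = 0.181). Without the libraries that stand apart HSP70 was called, at -1.0999 (adjusted p = 0.0269), where 10.7% of all rows were lower. These libraries were left out after seeing their high HSP70, so this call is not independent support. RTL2 itself was higher in dcl234 35S-RTL2, as given above. Few genes of the lists were called, beside the 20.9% of all rows. Of 17 other heat shock factor genes tested 1 was higher, the HSFC1 row (0.89). Of 16 other HSP70 and HSP110 genes 1 was higher, cpHSC70-1 (0.35). Of 8 other HSP90 and HSP100 genes 2 were higher, HSP90.5 (0.50) and HSP90.6 (0.30). Of 12 other small heat shock protein genes 1 was lower, AT4G21870 (-3.00, adjusted p = 0.0217). Of 16 co-chaperone and other heat response genes 0 were called.

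The single 35S-truncatedDCL1 library was compared with dcl234 on the assumption that it varies like the other groups, so the comparison has no replicate check. A fit with the dcl234 libraries alone also leaves out rtl2-1 replicate 2 and 35S-RTL2 replicate 2, in which HSP90.1 is high. A call of HSP90.1 made so is not independent support. Of the 7 genes 0 were called by edgeR and DESeq2 (5.65% of all rows), with 1, HSP18.2, at an unadjusted p below 0.05 (0.50, SE 0.18, adjusted p = 0.163). HSP90.1 differed by 0.89 (SE 0.91, adjusted p = 0.750), and it was called only with the dcl234 libraries alone in the fit (adjusted p = 0.0201), where 9.05% of all rows were higher. In the lists, the row of HSFB1 (0.98), HSFB2A (0.76) and HSFA4A (1.096) were higher among the 17 other heat shock factor genes tested. Of 16 other HSP70 and HSP110 genes tested, only BIP3 was called. BIP3, an HSP70 of the endoplasmic reticulum made under protein folding stress, was at 7.86 CPM against 0.491 ± 0.167 in dcl234 (log2 3.99). No gene of the other heat response lists was called.

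Across all 7 groups at once, HSP101 (adjusted p = 2.19e-05), HSP18.2 (adjusted p = 1.42e-05) and HSP70 (adjusted p = 0.0406) differed by edgeR's joint test, as did 40.7% of all rows. With 1 library left out in turn, HSP101 and HSP18.2 were called in 17 of 17 fits and HSP70 in 5 of 17. HSP70 was lost without any 1 of the Col-0, 35S-RTL1-Myc, dcl234 or dcl234 35S-RTL2 libraries and without 35S-RTL2 replicate 1.

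Over the 18 libraries, the log2 CPM of HSFA2 and HSP70 correlated at r = 0.92, of HSP70 and HSP90.1 at 0.89 and of HSFA2 and HSP90.1 at 0.86. HSP101 and HSP18.2 correlated at 0.87, but HSP18.2 with HSP70 at 0.06 and with HSP90.1 at -0.13. Taken as deviations from the group mean over 17 libraries, HSP101 instead followed HSP70 (0.83), HSFA2 (0.81) and HSP90.1 (0.72) and not HSP18.2 (-0.014), while HSFA2, HSP70 and HSP90.1 kept correlations of 0.92 to 0.97 with each other. Over all libraries the HSP101 row, shared with AT1G74300, thus went with HSP18.2, both being highest in 35S-RTL1-Myc. Within groups this row went with HSFA2, HSP70 and HSP90.1. These are descriptions over libraries that share groups, and HSFA2, HSP70 and HSP90.1 each have their highest values in rtl2-1 replicate 2 and 35S-RTL2 replicate 2. HSFA2, HSP70, HSP90.1 and HSP18.2 have the 3-unit element shown above, and HSP101 had none in its window.

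**Figure D5:**
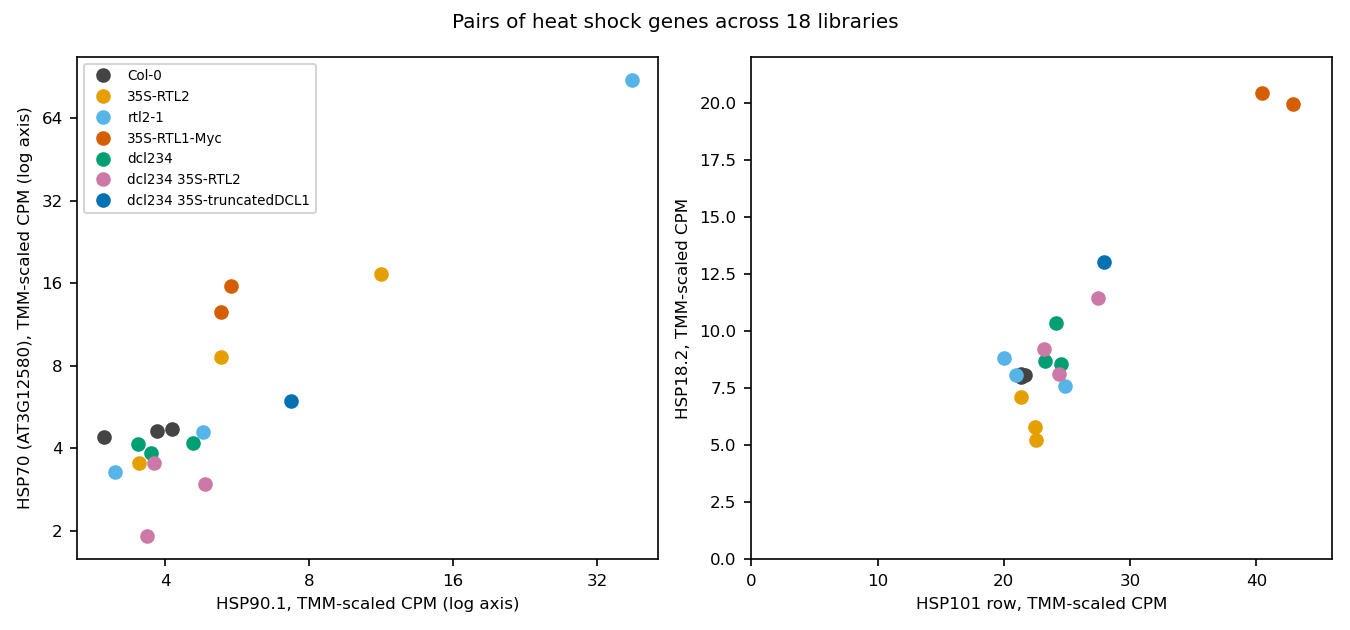
Level of HSP70 against HSP90.1 (left, log axes) and of HSP18.2 against the HSP101 row (right, linear axes) in 18 libraries, 1 point per library, coloured by group. On the left 1 rtl2-1 library is far above the rest and the 35S-RTL1-Myc libraries lie near 35S-RTL2, and on the right the 35S-RTL1-Myc libraries stand alone at the top.

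Outside the heat shock genes, the rows whose log2 CPM was most like the mean standardised profile of the 7 genes over 18 libraries were HIPP22 (r = 0.94), AT5G13200 (0.93), AT2G41190 (0.92), the starch synthase gene GBSS1 (0.92) and AT4G19510 (0.92). By deviations from the group mean over 17 libraries they were MYB115 (0.96), the sucrose synthase gene SUS3 (0.96), PMSR3 (0.95), AT2G37110 (0.95) and AT2G41190 (0.95). The 7 genes themselves had r of 0.50 to 0.88 with the first profile and -0.067 to 0.95 with the second, which they therefore do not all share. The named rows were picked as the highest of all rows tested, so the values describe these libraries only.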

How the data were processed

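The authors deposited raw read counts for each row of each library, whole numbers with no normalization. The submitters' processing notes name the build TAIR9. Aligner, counting tool and strand setting were not given in the sources used here. Of 31362 rows, 1897 join overlapping genes. Rows with few counts were removed with filterByExpr, which left 21343, and edgeR 4.0.16 in R 4.3.3 (glmQLFit and glmQLFTest, TMM scaling with factors of 0.977 to 1.033) was fitted to 7 group means over 18 libraries. Calls were made below an adjusted p of 0.05 (Benjamini-Hochberg, all rows). The SE was taken from the F statistic, and the fit was tested on simulated data. The biological coefficient of variation was 15.1%, and detection limits (3 counts) cover counting error only, whereas the SE and its intervals include the spread between libraries.

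The 9 genes, the lists, the tests and most alternatives were chosen with earlier results of these data known. Beyond the 9 genes, the rule named up to 4 called genes with the smallest adjusted p per list and comparison, the 5 rows most like the genes by each measure, and LHY, CCA1 and TOC1. Alternatives were RLE scaling, no filter, DESeq2 1.42.0, the compared groups alone, a replicate block, the number in the file name as a factor, a fold of at least 1.5 and leaving out each library. Promoter windows and symbols came from RefSeq's TAIR10.1, with 32701 of 33378 genes matched, and each locus was located by that annotation.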

Additional observations from a re-analysis of the deposited data

How the results depend on the processing

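Of 149 counts of called heat shock genes under alternative settings, 142 stayed within 1.5 times the count reported and 7 did not. For 35S-RTL1-Myc against Col-0, 3 became 6 with only the groups compared and 5 without rtl2-1 replicate 2 and 35S-RTL2 replicate 2, the latter chosen after seeing the data. For 35S-RTL1-Myc against dcl234, 2 became 4 in both. In either comparison of 35S-RTL1-Myc, both settings leave out rtl2-1 replicate 2 and 35S-RTL2 replicate 2, so the calls gained are not independent support. For dcl234 35S-RTL2 against 35S-RTL2, 1 became 2 in both. For 35S-truncatedDCL1 against dcl234, 0 became 1 with only the groups compared. No called difference reversed. Of 745 counts over the other lists 651 stayed within 1.5 times. The call of HSP18.2 in dcl234 35S-RTL2 against 35S-RTL2 and the calls of HSP101 and HSP18.2 in 35S-RTL1-Myc held under every alternative run, with log2 values of 0.52 to 0.80, 0.92 to 1.01 and 1.32 to 1.37 (the last 2 against Col-0). HSP17.6II held in 8 of 12.

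With each library left out, counts were 2 to 3 for 35S-RTL1-Myc against Col-0, 2 to 4 for any difference among the 7 groups, 2 for 35S-RTL1-Myc against dcl234, 1 for dcl234 35S-RTL2 against 35S-RTL2 and 0 for every other comparison. Same-numbered replicates deviated together by over 0.1 in only 15 of 40 pairs (r from -0.302 to 0.539), and in no comparison made here did every pair do so, so the numbers were not taken as pairs. In 35S-RTL2 and rtl2-1, which are not compared, all 3 did (0.31, 0.471 and 0.539). With the replicate block every pairwise comparison kept its count, 3 for 35S-RTL1-Myc against Col-0 among them, and the joint test called 2 rather than 3. The block could not be fitted for 35S-truncatedDCL1, which has 1 library.

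Depth limits HSP17.6II, HSP22 and HSP21, which had 1 to 17, 0 to 8 and 0 to 1 counts per library.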
